A study of Homo sapiens with 42 samples.

Results

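The 2 control maps of N6-methyladenosine (m6A) in HepG2 cells, a human liver cancer line, were compared with each other, with no knockdown on either side. The maps are deposited lists of m6A peaks, and together they held 64921 of the 211410 peaks in the 7 lists of the series. The members are all peaks of both control lists, each peak being counted once where a list repeated its strand and blocks. This left 33672 peaks in 14570 genes for the first control and 31249 peaks in 13526 genes for the second control. A peak was called shared when a peak of the other list on the same strand had at least 1 base of its blocks in common, and absent otherwise. Blocks are the pieces of a peak that remain when introns are left out, and a gene is an Ensembl identifier as the lists give it.

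m6A is laid down on messenger RNA in the nucleus by a complex in which METTL3 carries the catalytic activity, METTL14 helps to bind the RNA and WTAP holds the complex together. Methylated sites are known to gather in long internal exons and around stop codons, and proteins that bind the mark influence the splicing, translation and decay of the transcript. SETD2 is the methyltransferase that trimethylates lysine 36 of histone H3 along transcribed genes.

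In m6A-seq, fragmented mRNA is captured with an antibody against m6A (immunoprecipitation, IP) and sequenced beside RNA that was not captured (input). Both controls were HepG2 cells infected with lentivirus carrying an shRNA labelled as a non-specific control and then selected with puromycin, and every group of the series shares the infection and the selection. The first control has the genotype label control and belongs to the set with the METTL3, METTL14, WTAP and SETD2#1 knockdowns, and the second control was made for the SETD2#2 knockdown and has no genotype label. Each control has 3 input and 3 IP libraries, so the comparison rests on 12 of the 42 samples. The labels name the same antibody for both controls and give its lot only for the first. They do not say whether the non-specific shRNA was the same sequence in both, whether replicates came from separate cultures, or when each set was made. The authors joined the replicates into a single peak list per condition, so no value here has a replicate error. A difference between the control cells cannot be told apart from a difference between the sets. The files used do not give the read number of any library, so depth is unknown. An absent peak means that no peak was called there, and lower methylation cannot be told apart from less transcript or fewer reads.

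Most of the HepG2 m6A map was found in both controls. Of the first control's peaks, 24058 (71.4%) were shared and 9614 (28.6%, 95% interval 28.1 to 29.0%) were absent from the second control. Of the second control's peaks, 26370 (84.4%) were shared and 4879 (15.6%, 15.2 to 16.0%) were absent from the first. The 28.6% and 15.6% are the background of all later counts of absent peaks. Intervals were computed by the exact Clopper-Pearson method and hold counting error alone. The shares depended on how much overlap was asked for. When common bases had to make up 50% or more of each peak, 45.2% of the first list and 40.8% of the second counted as absent. They also depended on the limits used in calling. The authors' shorter lists hold exactly the peaks that have at least 2-fold enrichment and a p-value no higher than 1e-05, and when those peaks were searched in the whole list of the other control, 14.8% and 6.37% were absent.

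At the level of genes, 12616 carried a peak in both controls, which is 86.6% of the first control's genes and 93.3% of the second control's. Genes with a peak in the first control only numbered 1954 (13.4% of its genes, 12.9 to 14.0%), and genes with a peak in the second control only numbered 910 (6.73%, 6.31 to 7.16%). When only genes of the shorter lists were searched in the whole list of the other control, 673 of 11950 and 284 of 10790 had no peak there. Of the genes with a peak in both, 9749 also had a peak in all 5 knockdown lists.

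The lists differed in form as well as in number. The median peak was 269 bases wide in the first control and 240 in the second, and the blocks covered 12.2 Mb and 9.28 Mb. Fold enrichment, the authors' linear ratio of IP over input, had a median of 6.79 in the first control (range 1.07 to 891) and of 4.33 in the second (1.07 to 218). The median log10 p-value of IP against input was -11.8 and -10.7. Both lists held on average 2.31 peaks per gene, and genes with a single peak made up 41.0% and 39.7%.

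The controls had less in common than any pair of lists within a set. The bases covered in common made up 57.9% of the bases covered by either control. The 11 pairs of lists within a set ranged from 62.1% to 74.5% with a median of 68.7%, and the 10 pairs across sets, the controls among them, ranged from 45.5% to 58.5% with a median of 51.9%. The first control had 70.4% in common with the METTL3 list, 62.9% with the WTAP list and 62.1% with the METTL14 list, all knockdowns of the methyltransferase complex. The first control thus had more bases in common with each of these knockdown lists than with the second control. The second control had 68.7% in common with the SETD2#2 list. The SETD2#1 list had 67.9% in common with the first control, 58.5% with the second control and 56.0% with the SETD2#2 list. It was the list of the first set with most in common with each list of the second set, the first control included. Pairs of lists share members, so these values describe the lists and carry no test.

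The leading shared peaks, ordered by their p-value ranks in both lists and in ties by fold enrichment, were mostly long and highly enriched. In the first control 182 peaks tied at the lowest p-value, so fold enrichment helped to choose the leaders. The peak leading by this order lay at chr16:84211783-84213881 (hg19, minus strand), in 3 blocks of 1919 bases in all. It had 224-fold enrichment in the first control and 42.5-fold in the second. In the knockdown lists the same place had 123-fold enrichment for METTL3, 63.2-fold for METTL14, 95.3-fold for WTAP, 63.9-fold for SETD2#1 and 22.1-fold for SETD2#2. Next came a peak at chr2:20646835-20648643 (plus strand, 1809 bases in 1 block), with 147-fold and 29.4-fold enrichment in the controls. A peak at chr9:131938933-131939737 (minus strand) had 115-fold and 33.9-fold. Both control values were above 29-fold in these 3 peaks, and the first control had the higher value in each. These values were in part set by the choice.

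The 12 leading shared peaks were chosen by the sum of their p-value ranks in both lists, with ties ordered by fold enrichment. They ran from 5.54-fold to 224-fold in the first control and from 3.22-fold to 42.5-fold in the second. All 12 had the higher fold enrichment in the first control, and all 12 were found in every knockdown list. Because fold enrichment helped to choose these peaks, their direction does not speak for shared peaks in general. Among all peaks matched 1 to 1, described below, it was higher in the first control in 71.3%. The widest gap as a ratio was that of a peak at chr22:38201159-38202286 (plus strand), with 138-fold in the first control and 5.56-fold in the second. That peak had 61.7-fold, 62.1-fold, 80.6-fold and 14.5-fold in the METTL3, METTL14, WTAP and SETD2#1 lists and 6.42-fold in the SETD2#2 list, so its low values were those of the second set. The lowest fold enrichment among the 12 was at chr1:161192229-161192978 (minus strand), with 5.54-fold and 3.22-fold and a log10 p-value of -12200 in the first control. A p-value can thus be extreme at a modest ratio, and the account below gives both measures.

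Where 1 peak of each list met only the other, the pair could be compared directly. Such pairs numbered 19160, which is 79.6% of the first control's shared peaks and 72.7% of the second's, and both peaks of every pair carried the same gene identifier. The rest were split or joined. In the first control 4059 peaks lay over several peaks of the second, and in the second 2555 lay over several of the first. The fold enrichment was higher in the first control in 13658 pairs (71.3%), with a median of 7.095 against 4.69. The ratio of the second to the first had a median of 0.694 (quartiles 0.431 and 1.07). Across these pairs Spearman's rho was 0.767 for the log10 p-value and 0.695 for fold enrichment, values that describe peaks called with the same method and are given with no test.

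**Figure D1:**
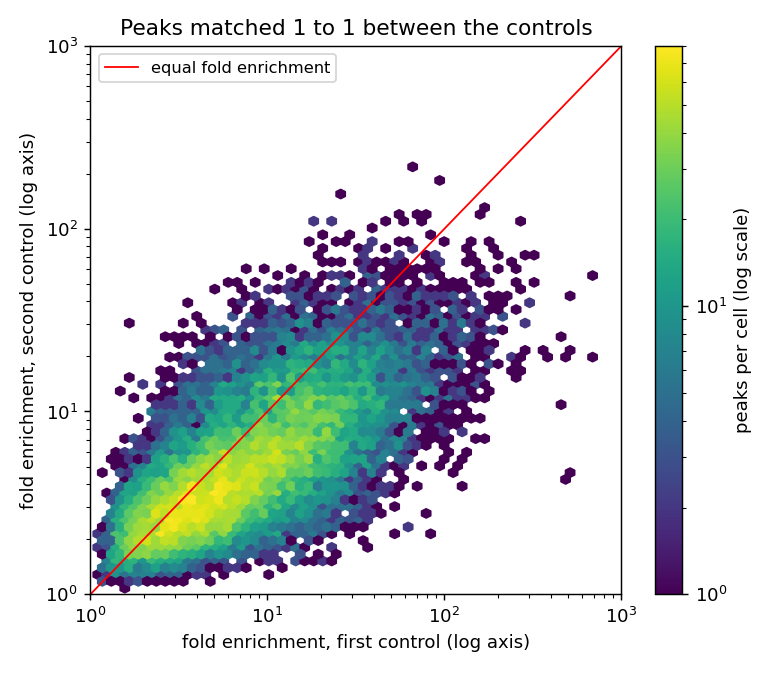
Fold enrichment (IP over input, the authors' values) of the 19160 peak pairs that met only each other, first control on the horizontal and second control on the vertical log axis, with the line of equal values and the colour giving the number of pairs per cell. Most pairs (71.3%) lie below the line, where the first control has the higher value.

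The pairs lay at the same places with different edges. Identical blocks were found in 1935 pairs (10.1%), and both edges lay within 30 bases of each other in 32.5%. In 82.5% of pairs the narrower peak lay wholly inside the wider. The median width was 300 bases in the first control and 260.5 in the second. At the 5' edge the second control's peak began inside the first control's in 50.8% of pairs, at the same base in 31.4% and outside in 17.8%. At the 3' edge the values were 46.1%, 27.7% and 26.2%.

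Whether a peak was found in the other control went with its p-value. The peaks of each list were put into 5 classes by p-value, from worst to best, with near 20% of the list in each. In the first control 67.5, 43.8, 22.2, 8.18 and 1.10% of the peaks were absent from the second, and in the second control 35.5, 20.5, 13.2, 6.70 and 2.13% were absent from the first. The first control had the larger absent share in every class except that of the best p-values. Among the better-ranked part of each list, split at the median, 7.28% and 6.06% were absent. Among the worse-ranked part, 49.96% and 25.3% were absent. The controls thus differed little from each other in the share of well-supported peaks that the other lacked and much in the share of weakly supported ones.

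Absent peaks were also narrow, although a rule of 1 common base is met more easily by a wide peak. Median width also rose from the worst to the best p-value class, from 120 to 600 bases in the first control and from 120 to 451 in the second. The part of each measure was not tested. In the first control 68.1% of peaks under 100 bases and 0.669% of peaks of 800 bases or more were absent, and in the second control the values were 41.9% and 0.0672%, the latter being 1 peak of 1489. Peaks found only in the first control had a median width of 151 bases, a median log10 p-value of -4.12 and a median fold enrichment of 4.71, against 330 bases, -22.4 and 7.71 for its shared peaks. Those of the second control had 150 bases, -4.29 and 2.58, against 269 bases, -13.8 and 4.70.

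Absent peaks also differed from shared ones in fold enrichment. Peaks found only in the first control had less than 2-fold enrichment in 10.4% and at least 10-fold in 27.1%, against 5.64% and 41.3% of its shared peaks. Those found only in the second had less than 2-fold in 30.3% and at least 10-fold in 10.5%, against 7.75% and 20.5% of its shared peaks. The higher share at 10-fold or more in the first control was thus present among shared peaks as well. Among all of the second control's peaks the absent share was 54.4% below 1.5-fold, 38.7% from 1.5-fold to 2-fold, 22.1% from 2-fold to 3-fold and 8.23% from 5-fold to 10-fold. The first control had 37.8%, 43.6%, 42.8% and 24.97% in the same ranges. At 40-fold and above, 2.14% of the first control's peaks and 0.635% of the second's were absent. Between 10-fold and 20-fold the absent share stood above that of the neighbouring ranges in both lists, at 29.8% and 11.1%. In that range the median log10 p-value was -10.6 in the first control and -11.7 in the second, weaker than the -17.7 and -26.5 of the range from 5-fold to 10-fold.

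**Figure D2:**
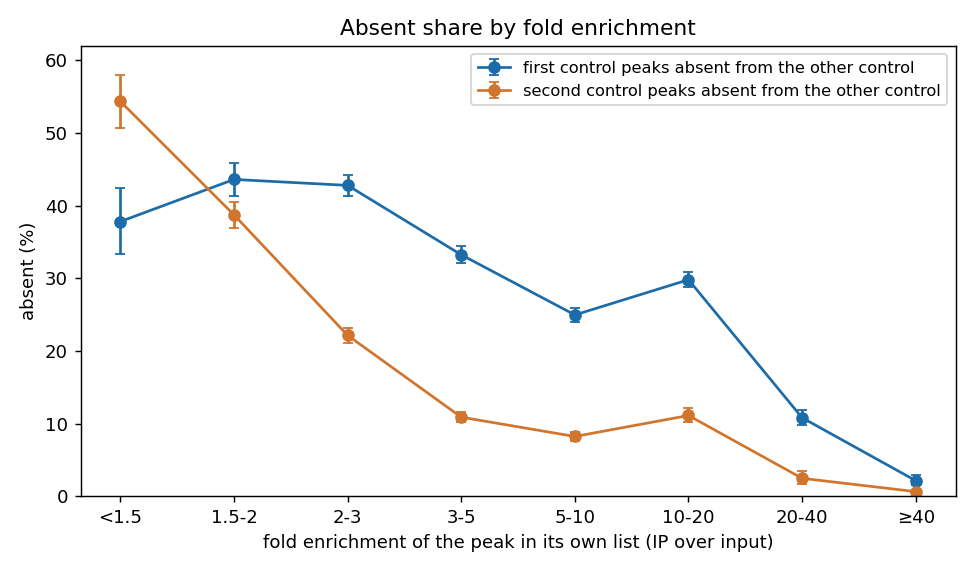
Share of each control's peaks (%) absent from the other control, by range of fold enrichment, with exact 95% intervals that cover counting error only. Below 1.5-fold the second control has the larger absent share (54.4% against 37.8%), and in each range from 1.5-fold up the first control has.

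Both measures together showed where the lists parted. Among peaks in the best class by p-value and the lowest class by fold enrichment, 14 of 220 in the first control (6.36%, 3.52 to 10.4%) and 63 of 248 in the second (25.4%) were absent. Among peaks in the best p-value class and the highest fold enrichment class, 14 of 2962 (0.473%) and 1 of 1939 (0.0516%) were absent. Peaks with strong support by both measures were thus found in both controls nearly without exception.

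**Figure D3:**
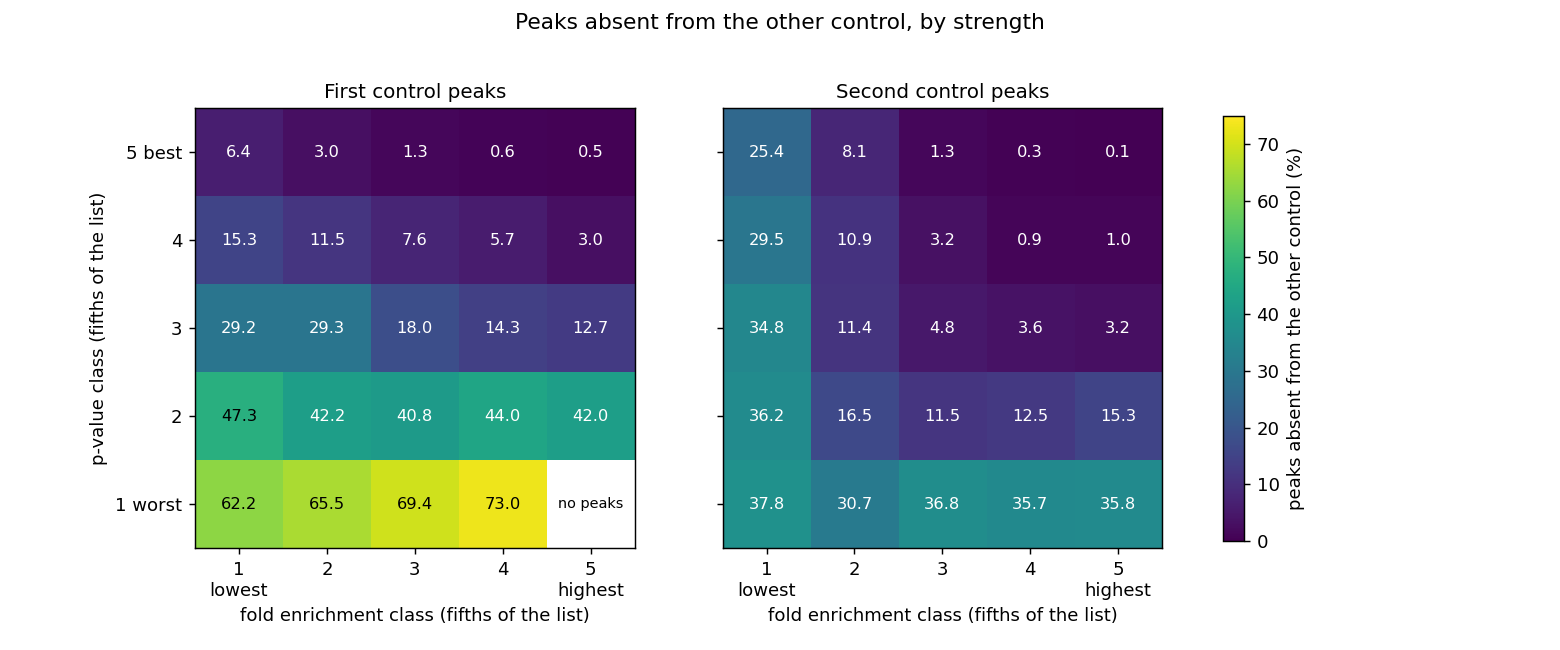
Share of peaks (%) absent from the other control for each of 5 classes by p-value (vertical) and 5 classes by fold enrichment (horizontal), each class near 20% of its list, for the first control on the left and the second on the right. The absent share falls from the worst to the best p-value class in both lists, and in the second control it stays at 25.4% for peaks with the best p-values and the lowest fold enrichment.

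Position within the gene made a smaller difference. In genes with at least 3 peaks in the first control, 24.1% of the 5'-most peaks, 26.0% of the 3'-most peaks and 33.5% of the peaks between them were absent from the second. In the second control the values were 12.2%, 15.1% and 15.2%. A gene's only peak was absent in 28.9% and 19.1%. Peaks on the plus and minus strands had near equal absent shares, 28.7% and 28.4% in the first control and 15.7% and 15.6% in the second. Peaks in 1 block were absent in 34.4% and those in 5 or more blocks in 5.22% in the first control, with 16.0% and 4.70% in the second. Peaks in more blocks differ in p-value as well, and the part of each measure was not tested.

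A peak missing from the other control mostly lay in a gene that kept a shared peak elsewhere. This held for 6734 (70.0%) of the first control's absent peaks and for 3506 (71.9%) of the second's. Of the former, 18.9% lay within 200 bases of a shared peak of the same gene, with a median distance of 1150.5 bases, and of the latter 9.67%, with a median of 3492 bases. These distances were taken between the spans of the peaks on the genome, introns included. In the 12616 genes with peaks in both controls, the number of peaks was equal in 6210 (49.2%) and differed by at most 1 in 10695 (84.8%). It was larger in the first control in 3372 (26.7%) and in the second in 3034 (24.0%). All peaks of both lists were shared in 6250 of these genes (49.5%), and no peak was shared in 293 (2.32%).

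The largest differences in peak number within a gene went both ways. The widest was that of a gene with its best peak at chr11:6587841-6588719 (plus strand, 49.7-fold), which had 15 peaks in the first control, 8, 8, 9 and 9 in the METTL3, METTL14, WTAP and SETD2#1 lists, 4 in the second control and 6 in the SETD2#2 list. A gene with its best peak at chr14:104095515-104095755 (plus strand, 73.7-fold) had 15 peaks in the first control, 11, 9, 10 and 8 in the same knockdown lists, and 7 in both lists of the second set. In both genes the first control stood above every other list, and the knockdown lists of its set stood between. The genes were chosen for their large difference between the controls, so the first control's lead over the second was set by the choice.

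Other genes of the first control parted more widely by set. A gene on chromosome 7 with its best peak from 1513937 to 1518481 (minus strand, 10 blocks, 10.2-fold) had 12 peaks in the first control, 11, 12, 10 and 10 in the METTL3, METTL14, WTAP and SETD2#1 lists, 4 in the second control and 2 in the SETD2#2 list. A gene on chromosome 15 with its best peak from 82764351 to 82766828 (plus strand, 19.1-fold) had 9 peaks in the first control, 9, 8, 10 and 6 in the same knockdown lists, and 1 and 2 in the second set. A second gene nearby, from 82973578 to 82975524 on the minus strand (19.9-fold), had 10 peaks in the first control and 2 in the second. In both chromosome 15 genes the first set had more peaks in every list than the second set. This did not hold for all of the 10 genes with the largest differences. A gene with its best peak at chr22:46758590-46759040 (minus strand, 53.4-fold) had 11 peaks in the first control, 2, 4, 7 and 1 in the knockdown lists of its set, 4 in the second control and 2 in SETD2#2. A gene with its best peak at chr14:23995059-23995359 (minus strand, 25.7-fold) had 11 in the first control, 6, 10, 6 and 0 in the knockdown lists, and 4 and 3 in the second set.

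In the other direction, a gene on chromosome 6 with its best peak from 144795812 to 144806536 (plus strand, 4 blocks, 2.87-fold) had 10 peaks in the second control, 8 in the SETD2#2 list and 1 in the first control, with 1 or 2 in the other knockdown lists. A gene on chromosome 14 with its best peak from 56078892 to 56079222 (plus strand, 2.65-fold) had 8 peaks in the second control, 7 in the SETD2#2 list and 1 in the first control. High fold enrichment also occurred in this direction. At chr9:131314837-131315431 (plus strand), a peak with 51.2-fold enrichment in the second control and 13.7-fold in the first belonged to a gene with 14 and 5 peaks.

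In the 293 genes with peaks in both lists and none shared, the peaks lay apart. The strongest by p-value was on chromosome 12, where the first control had a peak from 122277433 to 122277640 (minus strand, 3.60-fold, log10 p-value -101) and the second control's best peak of the gene ran from 122287824 to 122292647 (1.42-fold, log10 p-value -7.97). The first control's peak was also found in the METTL3, WTAP, SETD2#1 and SETD2#2 lists, at 2.25, 2.04, 2.11 and 1.57-fold.

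The knockdown lists showed which of the absent peaks returned elsewhere in the series. Of the peaks found only in the first control, 53.5% were found in the METTL3 list, 46.8% in the METTL14 list, 49.1% in the WTAP list and 41.8% in the SETD2#1 list, all of its own set, and 17.7% in the SETD2#2 list. Of the peaks found only in the second control, 56.0% were found in the SETD2#2 list and 12.5, 10.3, 9.59 and 13.6% in the METTL3, METTL14, WTAP and SETD2#1 lists. For shared peaks the 5 lists held between 79.5% and 87.0% whichever control was read. For peaks found in a single control the 2 SETD2 lists thus stood apart, each with the lists of its own set, although both are knockdowns of SETD2. Among the knockdown lists of the first set, SETD2#1 held the smallest share of the first control's peaks here and the largest share of the second's.

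**Figure D4:**
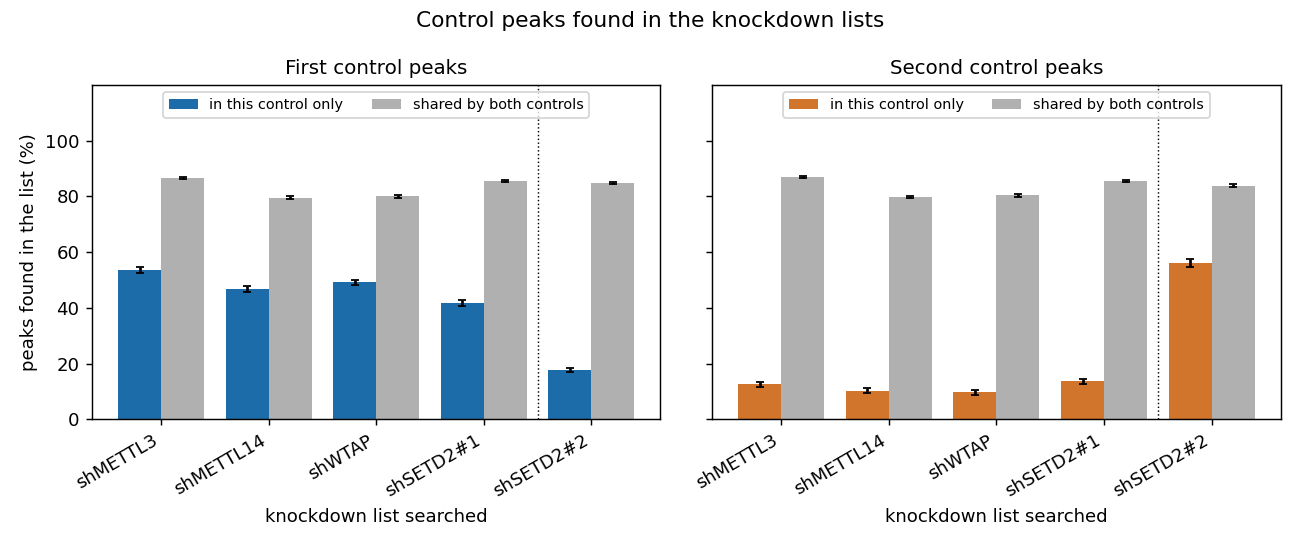
Share of peaks (%) found in each knockdown list, for peaks in a single control (coloured) and for shared peaks (grey), first control on the left and second on the right, with exact 95% intervals that cover counting error only. The dotted line parts the first set from SETD2#2. Peaks found only in the first control reach 41.8 to 53.5% in its own set and 17.7% in SETD2#2, and peaks found only in the second reach 56.0% in SETD2#2 and at most 13.6% elsewhere.

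The contrast was wider among peaks with strong support. In the best class by p-value, 74 of the first control's peaks had no counterpart in the second, and 97.3, 93.2, 91.9 and 93.2% of them were found in the METTL3, METTL14, WTAP and SETD2#1 lists against 21.6% in the SETD2#2 list. In the same class 133 of the second control's peaks were absent from the first, and 97.7% of them were found in the SETD2#2 list against 9.02, 12.8, 3.76 and 21.1% in the others. Over all strengths, 1798 of the peaks found only in the first control (18.7%) were in all 4 knockdown lists of its set and not in SETD2#2, and 2308 (24.0%) were in no knockdown list. Of those found only in the second control, 2047 (42.0%) were in SETD2#2 and in no list of the first set, and 1563 (32.0%) were in none. Of the first control's 24058 shared peaks, 15404 (64.0%) were in all 5 knockdown lists and 584 (2.43%) in none.

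Genes with peaks in a single control mostly had a single peak that was weak by p-value. The 1954 genes of the first control carried 2529 peaks, and 1541 of them (78.9%) had only 1. Their peaks had a median fold enrichment of 8.76 and a median log10 p-value of -3.62, 43.3% were at least 10-fold and 4.31% were under 2-fold. The 910 genes of the second control carried 1044 peaks, and 803 of them (88.2%) had only 1. Their peaks had a median fold enrichment of 3.20 and a median log10 p-value of -4.095, 15.9% were at least 10-fold and 22.3% were under 2-fold. Over all peaks, 37.3% of the first control's and 18.97% of the second's were at least 10-fold, so the first control had the higher ratios over its whole list too. The median ratio of these genes' peaks was above that of the whole list in the first control (8.76 against 6.79). In the second control it was below (3.20 against 4.33). Both groups were weak by p-value beside the medians of -11.8 and -10.7 over all peaks.

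The share of such genes dropped with the number of peaks. Among genes with 1 peak, 25.8% of the first control's and 15.0% of the second's had none in the other control, against 13.4% and 6.73% of all genes. With 2 peaks the values were 8.27% and 2.35%, and with 5 or more they were 1.07% and 0.0819%. A gene's best peak ranked in the better part of the list by p-value in 182 of the first control's 1954 genes (9.31%) and in 178 of the second's 910 (19.6%), against 66.2% and 64.5% of all genes of each list. Some identifiers overlap on the same strand, since 33 of the 2529 peaks and 17 of the 1044 shared bases with a peak of another identifier in the other control.

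The 2 strongest genes of the first control only, by p-value, had a peak in every list of their set. ENSG00000213760.10 had its best peak at chr6:31514529-31516204 (minus strand, 2 blocks, 299 bases), with 31.1-fold enrichment in the first control and a log10 p-value of -185. The same place had 16.3-fold, 17.0-fold, 24.7-fold and 10.8-fold in the METTL3, METTL14, WTAP and SETD2#1 lists and no peak in either list of the second set. ENSG00000196305.17 had its peak at chr9:95007252-95009737 (minus strand, 2 blocks, 211 bases), with 4.70-fold in the first control, 2.54, 4.72, 3.59 and 1.63-fold in the same knockdown lists, and none in the second set. Both genes were thus found in 5 lists of 5 and 0 of 2.

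High ratios occurred in this class too, beside ratios near its median. A peak at chr14:57396740-57396980 (plus strand, 241 bases) had 274-fold enrichment in the first control, 47.4, 33.6, 60.7 and 65.3-fold in the METTL3, METTL14, WTAP and SETD2#1 lists, and no peak in the second set. A peak at chr1:161576644-161577948 (plus strand, 1305 bases) had 153-fold in the first control and 10.7, 16.5, 31.4 and 9.83-fold in the same lists. A peak at chr3:183976209-183976448 (plus strand) had 8.59-fold, close to the 8.76 of the class's median peak, and 11.2, 9.47, 7.54 and 8.27-fold in the same lists.

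Other leading genes of the first control were not absent from the whole second set. At chr9:130911498-130912810 (plus strand, 3 blocks) the first control had 55.7-fold, the 4 knockdown lists of its set had 7.61, 15.0, 30.3 and 4.85-fold, the second control had no peak and the SETD2#2 list had 7.5-fold. At chr12:121438810-121439071 (minus strand) the first control had 6.74-fold under an identifier that the second control lacked, while the second control had a peak of 10.8-fold at the same place under another identifier. The latter is a difference in identifier and not in the place of the peak.

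The gene with most peaks among those of the first control only had 13, with its best peak at chr12:40884491-40884911 (plus strand, 36.9-fold, log10 p-value -10.2). It had 16, 9, 10 and 1 peaks in the METTL3, METTL14, WTAP and SETD2#1 lists and none in the second set. A gene on chromosome 1 with its best peak from 152282059 to 152282269 (minus strand, 20.6-fold) had 9 peaks in the first control, none in the second control and 8 in the SETD2#2 list. Its numbers in the first set's knockdown lists were 1, 4, 13 and 0, so it followed neither set. At chr15:84953941-84957400 (minus strand, 29.1-fold) lay the best of 8 peaks of a gene with 9, 6, 4 and 4 peaks in the knockdown lists of the first set and none in the second.

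The strongest genes of the second control only combined very low p-values with low ratios. ENSG00000226958.1 had a single peak at chrX:108297591-108297706 (minus strand, 116 bases), with a log10 p-value of -3670 at 1.34-fold enrichment in the second control, 1.17-fold in the SETD2#2 list and no peak in any list of the first set. ENSG00000268387.1 had its peak at chr1:161190160-161192296 (plus strand, 2 blocks), with a log10 p-value of -2520, 2.23-fold in the second control, 2.17-fold in SETD2#2 and none in the first set. Both peaks were among the best of the second control by p-value and among its lower ratios, since its median was 4.33. The span of the chromosome 1 peak ends within that of the minus-strand peak at chr1:161192229-161192978. That minus-strand peak was shared by both controls and found in every knockdown list, and only peaks on the same strand were compared.

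Other leading genes of the second control also had low ratios. At chr5:170819841-170832444 (plus strand, 4 blocks) the ratio was 3.97-fold in the second control, 3.22-fold in SETD2#2 and 1.12-fold in SETD2#1, with no peak in the first control. At chr1:93303140-93307481 (plus strand, 3 blocks) it was 2.62-fold and 2.84-fold in SETD2#2, and at chr13:45910926-45911255 (minus strand) 3.90-fold and 3.94-fold. All 12 leading genes of the second control only, ranked by their best p-value, had best peaks between 1.34-fold and 3.97-fold, and all 12 had a peak at the same place in the SETD2#2 list. The 12 of the first control only ran from 2.36-fold to 274-fold. The gene with most peaks in the second control only had 5, led by a peak at chr20:47570268-47582489 (plus strand, 2.29-fold), and 2 in SETD2#2.

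Genes of a single control were found more often in the knockdown lists of their own set than in those of the other set, and many were found in none. Of the 1954 genes of the first control only, 1097 (56.1%) had a peak in the METTL3 list, 946 (48.4%) in METTL14, 1041 (53.3%) in WTAP, 883 (45.2%) in SETD2#1 and 490 (25.1%) in SETD2#2. Of the 910 genes of the second control only, 525 (57.7%) had one in SETD2#2 and between 100 (10.99%) and 148 (16.3%) in each list of the first set. In no knockdown list were 389 genes of the first control only (19.9%) and 251 of the second only (27.6%), and 161 of the former were in all 5. Genes with a peak in every list of the first set and in none of the second numbered 347 of the first control's 14570. Their median best fold enrichment was 10.3, and 4 of them were under 2-fold. Genes with a peak in both lists of the second set and in none of the first numbered 373 of the second control's 13526. Their median was 2.40, and 125 of them (33.5%) were under 2-fold. The medians over all genes were 9.43 and 5.79, with 3.29% and 4.61% under 2-fold. The counts ask for a peak in 5 lists and in 2 and cannot be compared with each other.

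**Figure D5:**
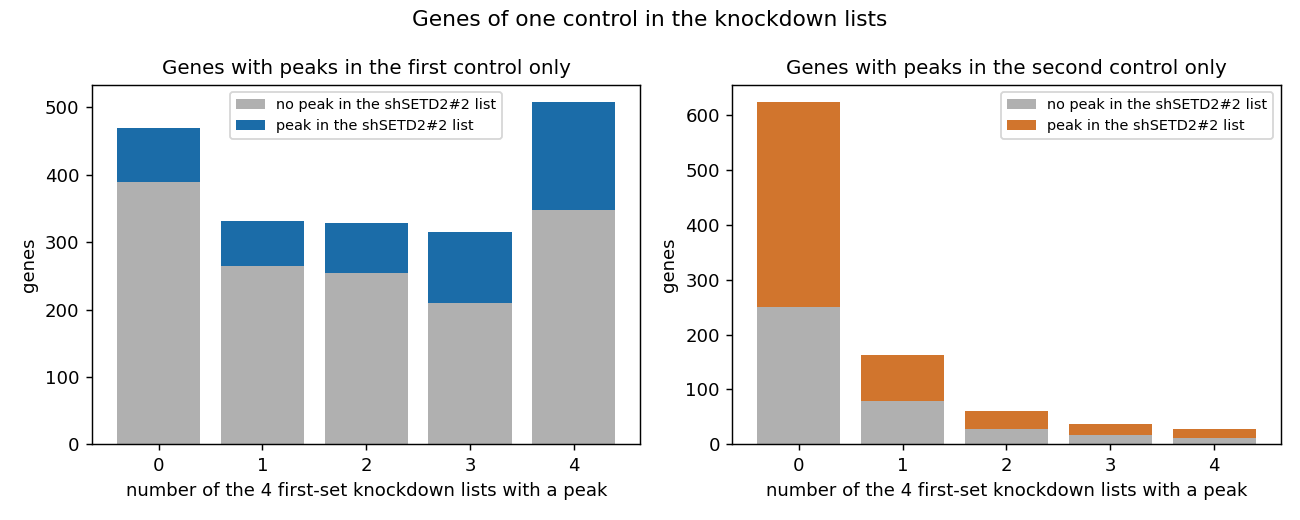
Number of genes with peaks in the first control only (left, 1954 genes) and in the second control only (right, 910 genes), by how many of the 4 knockdown lists of the first set hold a peak of the gene, with each bar split by whether the SETD2#2 list holds one. The largest part of the right-hand bars is the 373 genes with a peak in SETD2#2 and in 0 lists of the first set, while the first control's genes are largest in number at 0 lists (389 with none in SETD2#2) and at 4 lists (347 with none in SETD2#2 and 161 with one).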

How the data were processed

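Per the labels, the m6A-seq peak lists were made with exomePeak on replicates 1 to 3 together, and per the submitters' processing notes the work used hg19, FastQC 0.11.5 and TopHat2 2.1.1. For exomePeak, neither version nor annotation is given in the sources used here. Per the file headers, the deposited tables hold, for every peak, the p-value of IP against input (under the heading score), the log10 of that p-value and of the FDR (false discovery rate), treated as scores, and the fold enrichment as a linear ratio. These are the authors' values, used to describe, rank and filter peaks within a list. Fold enrichment was also set side by side between lists, although how the authors scaled libraries is not stated. The deposited tables also give the count of blocks per peak. The largest FDR was near 0.05.

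Repeats of strand and blocks, 16 and 21 in the control lists, were dropped. Overlaps were found with bedtools 2.31.1, and further work was done with pandas 2.3.3, numpy 2.4.6 and scipy 1.17.1 under Python 3.11.15. In simulated data, 28.4% of the 33672 peaks of the first control were taken away or moved to the other strand. The last blocks of the peaks that were not taken away were shortened at random. The overlap step called 26.5% absent, because the place of a peak taken away or moved can be covered by another peak. The members, gene classes and rules for naming were chosen with earlier results of these data known. Named are 12 shared peaks by the sum of p-value ranks, with ties ordered by fold enrichment. For each control there are also 12 genes by best p-value, 8 by number of peaks and 12 found in the whole set only. A further 10 per control were named by the difference in peak number, with 8 genes whose peaks do not overlap. A selection of these is described. The gene names table used here paired 0 of 59792 entries with Ensembl identifiers, so lists of marker and pathway genes fixed by symbol were not analysed here, the HepG2 label was not checked against hepatocyte markers, and identifiers are printed for 4 genes. Sequences and transcript regions under the peaks were not analysed here.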

Additional observations from a re-analysis of the deposited data

How the results depend on the processing

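The direction, a larger absent share in the first control, held under every overlap rule and filter tried. Of the first control's peaks 28.6% were absent from the second, and 45.2% with common bases of at least 50% of both peaks, 31.8% with at least 100 common bases or the whole narrower peak, 28.0% on either strand, 29.6% in the authors' shorter lists, 36.8% with fold enrichment of at least 3 and 14.8% when shorter-list peaks were searched in the whole table. Of the second control's peaks 15.6% were absent from the first, and 40.8% with 50% overlap, 19.2% with 100 bases or the whole narrower peak, 13.9% in the shorter lists, 14.7% by fold enrichment, 14.4% with an FDR of at most 1e-05 and 6.37% by the search in the whole table. Whole spans, kept repeats, an FDR of at most 1e-05 for the first control and either strand for the second moved the share by less than its interval. Genes of a single control numbered 1954 of 14570 and 910 of 13526. They became 673 of 11950 and 284 of 10790 when genes of the shorter list were searched in the whole table. Other rules kept the counts within 1.5 times, but the number of genes searched changed with the filter. With fold enrichment of at least 3 they were 2552 of 13421 and 925 of 11794. In the shorter lists they were 1985 of 11950 and 825 of 10790. The cause of these shifts was not tested.

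Further alternatives were chosen after seeing the data. Genes found in the whole second set only numbered 373 of the second control's 13526. When all 7 lists were filtered at a fold enrichment of at least 3, they numbered 245 of 11794. Those found in the whole first set only numbered 347 of the first control's 14570, and 477 of 13421 with the filter. The filter thus also changed the number of genes searched. With 50% overlap, lists of its own set held 37.4 to 45.8% of the peaks found only in the first control and SETD2#2 14.7%, and SETD2#2 held 50.2% of those found only in the second and the other lists 18.7 to 23.5%. With fold enrichment of at least 3 the latter values were 39.6% and 13.0 to 17.1%. Genes could not be joined by symbol, so that alternative was not run. No paired analysis was possible because each list joins replicates 1 to 3, and for the same reason no replicate could be left out. Depth limits every absence: without read numbers, a peak missed for want of reads cannot be told apart from an unmethylated site.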

Other observations

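Absent shares varied between chromosomes, in different order for each control. Of the first control's peaks, 33.6% were absent from the second on chromosome 21, 32.4% on chromosome 22 and 32.2% on chromosome 19, against 22.5% on chromosome 18 and 24.3% on chromosome 20. Of the second control's peaks, 21.1% were absent from the first on chromosome 13, 20.9% on chromosome 4 and 19.96% on chromosome 2, against 10.4% on chromosome 16, 10.9% on chromosome 22 and 11.9% on chromosome 19. The share on chromosome Y was lower still, 7.46%, but from 5 of only 67 peaks. Chromosomes 19 and 22 thus stood near the top for the first control and near the bottom for the second. They also had among the lowest ratios of second to first control peaks, 0.865 and 0.839, against 1.03 on chromosome 18. The part of peak number in these shares was not tested. Over the 22 autosomes Spearman's rho between the shares was -0.37 and Pearson's r -0.39, given as a description of chromosomes whose peaks come from the same lists.

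The share of genes with peaks in a single control varied between regions, and whether it varied more than an even spread would give was not tested. In the 486 windows of 1 Mb with at least 10 genes, a median of 10.0% of the genes had peaks in the first control only and 2.34% in the second only. The highest share for the first control was on chromosome 2 from 132000001 to 133000000, with 7 of 11 genes, followed by chromosome 19 from 51000001 to 52000000, with 8 of 15. For the second control it was on chromosome 16 from 56000001 to 57000000, with 4 of 10. These windows were picked for their values out of 486 and carry no test.

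A peak with a called peak on the opposite strand at the same place was found in the other control more often than one without. Of the first control's peaks, 24.0% were absent with an opposite peak and 29.1% without, and of the second's 10.4% and 16.2%. Peaks with an opposite peak also had lower p-values, with a median log10 of -16.4 against -11.4 in the first control and -13.8 against -10.5 in the second, and the part of the p-value in this difference was not tested.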
